A study of Mus musculus with 16 samples.

Results

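The miR-379 to miR-410 cluster is a run of microRNA (miRNA) hairpins in the imprinted Dlk1-Dio3 region of mouse chromosome 12. Its members were taken by name, as every mouse feature on the array, of either hairpin arm, whose number is one of the 33 numbers of the cluster from miR-379 to miR-410. This gave 45 features of the 611 mouse miRNA features measured, and each of the 33 numbers was present. For 12 hairpins both arms were on the array and for the other 21 a single feature was. The miR-376 family and miR-494, which lie inside the same interval, are not counted as members. In the RefSeq annotation of GRCm38.p6 the 33 hairpins lie on the plus strand at chr12:109709060-109743795, a span of 34.736 kb, in the order of the naming rule.

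A miRNA is cut from a hairpin in a longer transcript, and its 5′ and 3′ arms can each give a mature strand that guides silencing of messenger RNAs through its seed. The miRNAs of the Dlk1-Dio3 region are made from RNA of the maternally inherited chromosome, under control of a differentially methylated region between the genes. They are known for high levels in embryo, placenta and brain and for low levels in adult liver. Phenobarbital activates the nuclear receptor CAR in hepatocytes and promotes liver tumours in mice, and beta-catenin, the product of Ctnnb1, is a co-activator of Wnt target genes that sustains the expression pattern of hepatocytes around the central veins.

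The study asked how dietary phenobarbital changed liver miRNAs with and without beta-catenin in hepatocytes. Liver RNA of male C3H mice was measured on 16 arrays, 4 in each of 4 groups: CTNNB1KO mice given 0.05% phenobarbital in the diet for 12 weeks, CTNNB1KO controls, WT mice given the same phenobarbital diet, and WT controls. CTNNB1KO mice carried Ctnnb1 with loxP sites around exons 3 to 6 and Cre recombinase driven by the albumin promoter. Deletion was thereby directed to hepatocytes, and whether other liver cells kept the gene was not examined here. The sources used here give neither the ages nor whether WT mice carried a loxP allele or Cre. Controls received a diet without phenobarbital per the treatment protocol, while their agent label reads water. The labels do not state that arrays of a group come from separate animals, and p-values cover only the spread between these samples, which may be technical. Ctnnb1 mRNA is not on a miRNA array, and the deletion was not checked here.

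Values are the deposited log2 expression values. The array also carries 39 viral miRNA features, and the 0.95 quantile of their means, 3.98, served as a floor under which a value cannot be told from background. Their median was 3.23 and their highest mean 4.60. Arrays of 1 group correlated at 0.966 to 0.996 across features. miR-122, which defines hepatocytes, was present in each group, with means of 15.23 in CTNNB1KO phenobarbital, 15.15 in CTNNB1KO control, 15.19 in WT phenobarbital and 15.28 in WT control arrays. The WT control arrays and CTNNB1KO phenobarbital replicate 3 share the same highest value of 15.28, so miR-122 shows no spread there, and hepatocyte content is not read from it. Mouse features above the floor numbered 100 to 126 on CTNNB1KO phenobarbital arrays, 117 to 123 on CTNNB1KO control arrays, 120 to 133 on WT phenobarbital arrays and 114 to 118 on WT control arrays.

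Mature sequences from RefSeq (GRCm38.p6) were matched to 42 of the 45 members, all but miR-1193, miR-485 and miR-487b. An asterisk in the array's older names marks the strand then taken as the minor arm. Shown are the 9 members that passed a test in any comparison, the opposite arm of their hairpins where it differs in outcome, and the 2 members whose sequence is nearest to miR-300 and miR-154*. They run 5′ to 3′, and capitals mark the seed, bases 2 to 8. The first group comes from the 5′ end of the cluster, where miR-379 and miR-411 share 14 of 21 bases.
miR-379: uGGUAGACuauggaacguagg
miR-411: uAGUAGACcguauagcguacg
miR-411*: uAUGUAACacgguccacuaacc
miR-299*: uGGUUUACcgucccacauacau
miR-299: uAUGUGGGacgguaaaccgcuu

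The next set holds both arms of the miR-300 hairpin and miR-381, which shares 19 of 22 bases with miR-300 when the strands are laid end to end without gaps.
miR-300: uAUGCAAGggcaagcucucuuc
miR-300*: uUGAAGAGagguuauccuuugu
miR-381: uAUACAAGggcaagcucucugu

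The last set comes from the 3′ part of the cluster, with miR-369-3p beside miR-154*, of which it shares 17 of 21 bases.
miR-154: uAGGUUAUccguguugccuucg
miR-154*: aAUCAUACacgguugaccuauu
miR-369-3p: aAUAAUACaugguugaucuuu
miR-377: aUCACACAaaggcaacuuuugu
miR-541: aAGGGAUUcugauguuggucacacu

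No 2 of the 42 matched members share all bases of the seed, so the members that passed are not 1 seed family. Their G and C content ran between 36.4% and 50.0% (median 45.5%, n = 9), against 23.8% to 72.7% in the other matched members (median 45.5%, n = 33).

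The cluster was near background in 3 of the 4 groups. On each of the 4 CTNNB1KO phenobarbital arrays, the 4 CTNNB1KO control arrays and the 4 WT control arrays, 0 of 45 members exceeded the floor. On the WT phenobarbital arrays 1, 6, 7 and 7 members did. By group mean, 6 members exceeded the floor, all in the WT phenobarbital group: miR-154*, miR-377, miR-379, miR-299*, miR-154 and miR-300. A log2 difference against a group under the floor is set in part by background, so for these 6 the WT phenobarbital mean over the floor is given as a lower bound on the fold. In RNA of whole liver, fewer cells that express a miRNA and less of it per cell cannot be told apart.

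In WT livers, phenobarbital raised 9 of the 45 members, which come from 7 hairpins, and lowered none (limma, adjusted p under 0.05 over all 611 features). Of the 9, 6 exceeded the floor by their WT phenobarbital mean and 3 stayed under it. Among all mouse features 17 were higher, 2.78%, and outside the cluster 8 of 566 were. Of those 8, 2 belong to the miR-376 family and 5 to the Rtl1-antisense and proximal miRNAs, which are neighbours in the Dlk1-Dio3 region. The rise was therefore not particular to the cluster within that region. At an unadjusted p under 0.05, 16 members were higher and 1 was lower, against 5.4% higher and 2.13% lower among all features. Differences were positive for 32 of 45 members with a median of 0.085, whereas over all 611 features 305 were positive and the median was -0.00016.

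**Figure D1:**
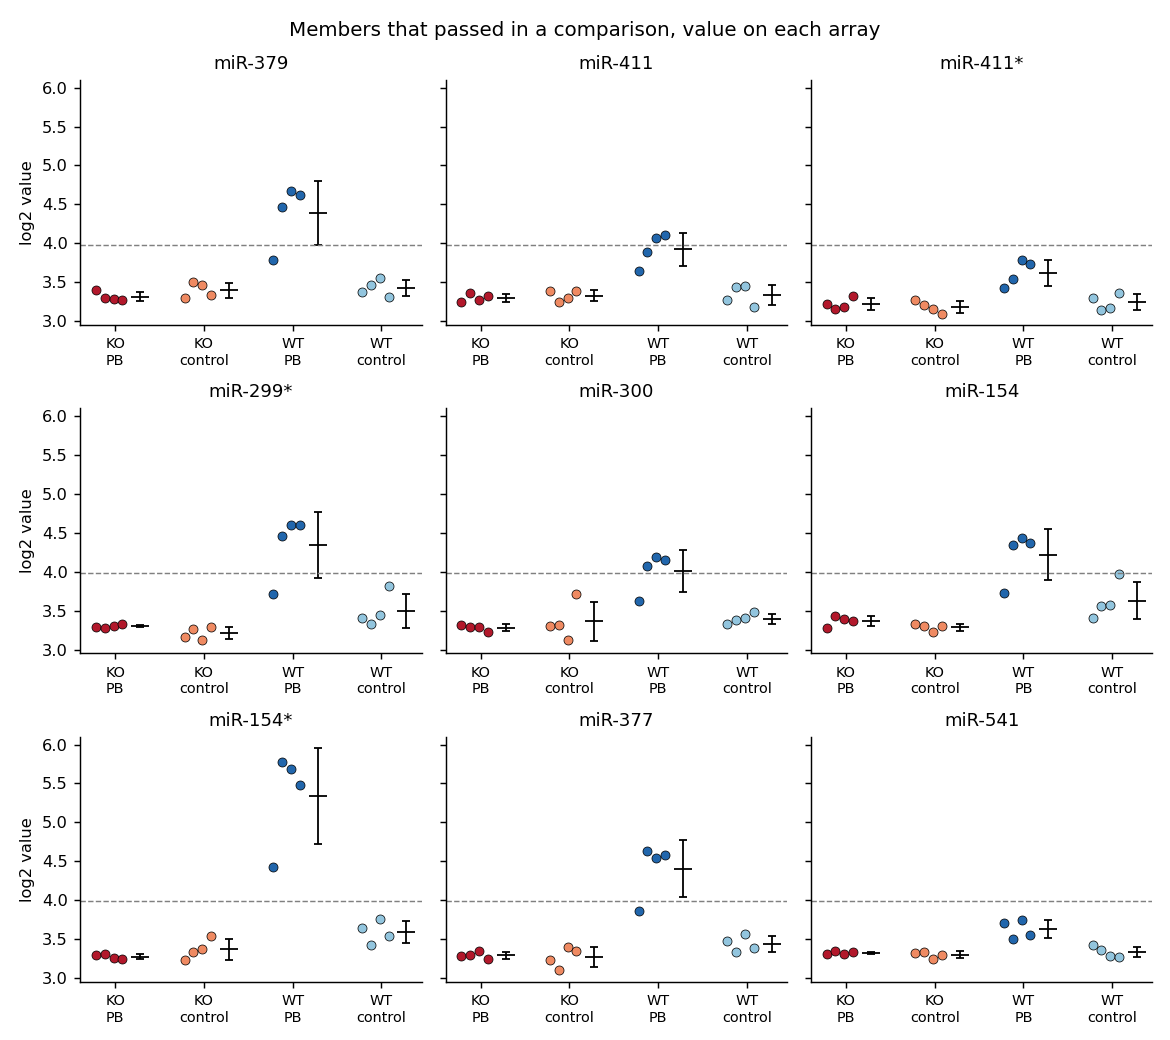
Deposited log2 value of the 9 members that passed in any comparison (panels), for each of the 16 arrays (points), with groups along the horizontal axis, CTNNB1KO phenobarbital and control left of WT phenobarbital and control. Bars give the mean ± SD (n = 4) and the dashed line the background floor of 3.98. In each panel the WT phenobarbital arrays reach the highest values, up to 5.77 for miR-154*, and no array of the other 3 groups lies above the floor.

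At the 5′ end of the cluster, the first 3 hairpins each had a member that rose. miR-379, the first hairpin and a regulator of lipid secretion in mouse liver, had log2 values of 3.79, 4.47, 4.68 and 4.62 in WT phenobarbital livers, against 3.38, 3.46, 3.56 and 3.32 in WT controls. All 4 phenobarbital arrays lay above all 4 controls, and the first of them lay under the floor. The difference of 0.96 ± 0.14 (SE, adjusted p = 0.000217) was at least 1.32-fold against the floor.

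miR-411, the 5′ arm of the second hairpin, had 3.64, 3.89, 4.07 and 4.11 in WT phenobarbital livers, against 3.28, 3.45, 3.45 and 3.19 in WT controls. The groups did not overlap, but the phenobarbital mean of 3.93 ± 0.21 (SD, n = 4) stayed under the floor, so no fold is given. The difference was 0.59 ± 0.10 (adjusted p = 0.000865), and with all values under the floor set to it the adjusted p was 0.355. Its opposite arm miR-411* had 3.42, 3.54, 3.78 and 3.74 in WT phenobarbital livers, against 3.29, 3.14, 3.17 and 3.37 in WT controls. Again no array overlapped and all 8 lay under the floor. The difference of 0.38 ± 0.09 (adjusted p = 0.0143) did not pass when WT phenobarbital replicate 3 or 4, or WT control replicate 2 or 3, was left out (adjusted p up to 0.0702).

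In the third hairpin 1 arm passed and the other did not. miR-299*, its 5′ strand, had 3.72, 4.45, 4.60 and 4.60 in WT phenobarbital livers, against 3.41, 3.32, 3.45 and 3.81 in WT controls. The first phenobarbital array lay under the fourth control, and the other 3 lay above every control. The difference was 0.84 ± 0.15 (adjusted p = 0.00149), at least 1.28-fold. Its 3′ strand miR-299 had 3.33, 3.14, 3.44 and 3.28 in WT phenobarbital livers, against 3.22, 3.21, 3.22 and 2.98 in WT controls, and these arrays overlapped. All of them lay under the floor, so a rise of this strand below detection would not be seen.

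Among the hairpins counted as members, miR-300 was the single one in the middle of the cluster with a strand that rose. The miR-376 family, which lies inside the same interval, is not counted here, and 2 of its 6 features were higher. miR-300 had 3.62, 4.07, 4.20 and 4.15 in WT phenobarbital livers, against 3.32, 3.38, 3.41 and 3.48 in WT controls. The groups did not overlap. The difference was 0.61 ± 0.12 (adjusted p = 0.0046) and the mean stood at least 1.02-fold over the floor; with values under the floor set to it the adjusted p was 0.0534. The opposite strand miR-300* had 3.25, 3.29, 3.25 and 3.60 in WT phenobarbital livers, against 3.08, 3.47, 3.37 and 3.48 in WT controls, with no separation of the groups. These values too were all under the floor.

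In the 3′ part of the cluster, miR-154* showed the largest difference with phenobarbital in WT among the 45 members. It had 4.43, 5.77, 5.68 and 5.48 in WT phenobarbital livers, against 3.65, 3.43, 3.76 and 3.54 in WT controls. All 4 phenobarbital arrays lay above the floor and all controls under it. The difference was 1.74 ± 0.20 (limma, adjusted p = 1.78e-05, 95% interval 1.32 to 2.16), at least 2.55-fold. The SD was 0.62 in WT phenobarbital and 0.14 in WT control arrays, and the interval rests on a spread pooled over all groups. The other strand of this hairpin, miR-154, had 3.73, 4.35, 4.43 and 4.37 in WT phenobarbital livers, against 3.41, 3.56, 3.57 and 3.97 in WT controls. Here the first phenobarbital array lay under the fourth control. The difference of 0.59 ± 0.14 (adjusted p = 0.0151), at least 1.18-fold, did not pass without any one of WT phenobarbital replicates 2 to 4 or WT control replicates 1 to 3 (adjusted p up to 0.0763).

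miR-377, which raises fibronectin production in cultured human and mouse kidney mesangial cells, had 3.86, 4.64, 4.55 and 4.58 in WT phenobarbital livers, against 3.48, 3.33, 3.56 and 3.38 in WT controls. The groups did not overlap, and 3 of the phenobarbital arrays lay above the floor. The difference was 0.97 ± 0.13 (adjusted p = 0.000133), at least 1.34-fold. miR-541 had 3.71, 3.50, 3.75 and 3.56 in WT phenobarbital livers, against 3.42, 3.36, 3.29 and 3.28 in WT controls. It did not overlap either, but lay under the floor throughout. Its difference of 0.29 ± 0.07 (adjusted p = 0.034) did not pass in 7 of the 16 fits that each left out 1 array, those without WT phenobarbital replicate 1 or 3, WT control replicate 2, 3 or 4, CTNNB1KO control replicate 4 or CTNNB1KO phenobarbital replicate 1 (adjusted p up to 0.159).

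The remaining 36 members did not pass in any comparison, and none exceeded the floor on any array. Their single values lay between 2.94 and 3.96, their group means reached at most 3.66 (miR-382), and their differences in WT ran from -0.23 (miR-668) to 0.31 (miR-409-3p). Short of the threshold, miR-382* differed by 0.25 (adjusted p = 0.0804), miR-409-3p by 0.31 (adjusted p = 0.0925) and miR-410, the last hairpin, by 0.27 (adjusted p = 0.161). miR-410 had 3.44, 3.41, 3.70 and 3.63 in WT phenobarbital livers, against 3.37, 3.18, 3.25 and 3.27 in WT controls. It was the single member outside the 9 whose phenobarbital arrays all lay above the controls. With it, 8 members were separated upward, against 3.93% of all features.

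miR-668 had the most negative difference in WT. It had 2.99, 3.19, 3.03 and 3.01 in WT phenobarbital livers, against 3.33, 3.19, 3.28 and 3.33 in WT controls. All its phenobarbital arrays lay below the controls, but the nearest 2 arrays barely differed, at 3.188 and 3.192. This was so for 1 of the 45 members, against 3.27% of all features. All these values are near the viral median. The difference of -0.23 did not pass (adjusted p = 0.0699), but did without WT phenobarbital replicate 2 (-0.27, adjusted p = 0.0217) and with array weights (adjusted p = 0.00792). miR-134, known to limit dendritic spine size in rodent neurons, had 3.22, 3.14, 3.23 and 3.22 in WT phenobarbital livers, against 3.33, 3.24, 3.30 and 3.18 in WT controls. These values overlapped and the member did not pass.

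WT phenobarbital replicate 1 stood below the other arrays of its group in the members that rose. It was the lowest of the 4 for 8 of the 9, miR-541 being the exception, and differed from the mean of replicates 2 to 4 by -1.22 (miR-154*) to 0.11 (miR-541). It was the lowest for 20 of all 45 members (44.4%), for 113 of all 611 mouse features (18.5%), for 4 of 6 features of the miR-376 family and for 6 of 24 of the Rtl1-antisense and proximal miRNAs (25%), where replicate 4 was the lowest for 10. Replicate 1 lay above all 4 WT controls for 7 of the 9. The 9 were called with these same arrays, so this is not separate evidence of a rise. Replicates 2 to 4 had SDs of 0.04 to 0.15. The labels name no batch or animal trait that sets it apart, and what lowered it was not tested. The median SD of the 9 members was 0.041 in CTNNB1KO phenobarbital, 0.077 in CTNNB1KO control, 0.329 in WT phenobarbital and 0.105 in WT control arrays, whereas the model pools the spread over groups. Its errors and intervals can therefore be too narrow where WT phenobarbital arrays are compared, and too wide between the CTNNB1KO groups.

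Without beta-catenin in hepatocytes, no rise of the cluster with phenobarbital was measured. In CTNNB1KO livers 0 of 45 members passed in either direction, against 0% of all 611 features. At an unadjusted p under 0.05 there were 0 members, and 16 features higher and 16 lower in all. Differences ran from -0.099 (miR-369-3p) to 0.116 (miR-667), with a median of 0.0087, and the smallest adjusted p was 0.989. No member separated the 4 phenobarbital from the 4 control arrays in either direction, against 1.31% of features separated upward and 1.47% downward.

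The 9 members that rose in WT stayed near the viral median in both CTNNB1KO groups. miR-154* had 3.30, 3.30, 3.26 and 3.24 in CTNNB1KO phenobarbital livers, against 3.23, 3.33, 3.38 and 3.55 in CTNNB1KO controls. miR-377 had 3.28, 3.29, 3.35 and 3.25 in CTNNB1KO phenobarbital livers, against 3.23, 3.11, 3.40 and 3.35 in CTNNB1KO controls. miR-379 had 3.40, 3.30, 3.28 and 3.27 in CTNNB1KO phenobarbital livers, against 3.29, 3.50, 3.46 and 3.33 in CTNNB1KO controls. For each of these 3 the arrays were interleaved and all lay under the floor. The phenobarbital differences of the 9 ran from -0.10 to 0.09, and all their 95% intervals lay within -0.51 to 0.41. Since both groups are under the floor, a change below the array's detection would not be seen.

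The other members with the smallest p in CTNNB1KO livers were miR-668, miR-369-3p and miR-134. miR-668 had 3.33, 3.14, 3.22 and 3.09 in CTNNB1KO phenobarbital livers, against 2.99, 3.18, 3.13 and 3.10 in CTNNB1KO controls, a difference of 0.10 ± 0.06 with an unadjusted p of 0.142 in limma. miR-369-3p differed by -0.10 ± 0.09 (unadjusted p = 0.274 in limma) and miR-134 by 0.06 ± 0.06 (unadjusted p = 0.317). None of the 3 passed the test.

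**Figure D2:**
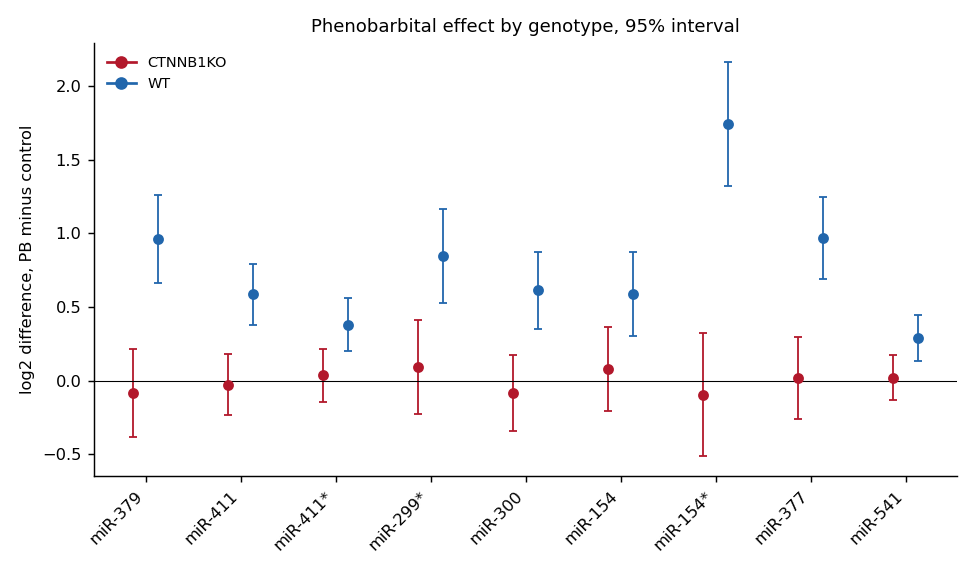
Phenobarbital minus control difference (log2) of the 9 members in CTNNB1KO livers, drawn left of that in WT livers, with 95% intervals of the model (n = 4 arrays per group). The model pools the spread over groups, so intervals can be too narrow for WT and too wide for CTNNB1KO. The CTNNB1KO differences lie between -0.10 and 0.09 and the WT differences between 0.29 and 1.74.

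Under phenobarbital, CTNNB1KO livers had lower levels of the same 9 members than WT livers, 9 of 45 lower and 0 higher, against 3.27% lower and 0.491% higher among all features. Outside the cluster 11 of 566 were lower and 3 higher. Of those 11, 3 belong to the miR-376 family and 6 to the Rtl1-antisense and proximal miRNAs of the same region. This comparison shares the 4 WT phenobarbital arrays with that of phenobarbital in WT, so the overlap of the 9 is not separate evidence. Means were 3.28 ± 0.03 in CTNNB1KO and 5.34 ± 0.62 in WT phenobarbital livers for miR-154*, a difference of -2.06 ± 0.20 (adjusted p = 1.35e-06). miR-377 averaged 3.29 ± 0.04 in CTNNB1KO and 4.41 ± 0.37 in WT phenobarbital livers (difference -1.11 ± 0.13, adjusted p = 1.77e-05). miR-379 averaged 3.31 ± 0.06 in CTNNB1KO and 4.39 ± 0.41 in WT phenobarbital livers (difference -1.08 ± 0.14, adjusted p = 5.3e-05).

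The remaining 6 followed with smaller differences of the same sign. miR-299* averaged 3.30 ± 0.02 in CTNNB1KO and 4.35 ± 0.42 in WT phenobarbital livers (difference -1.04 ± 0.15, adjusted p = 0.000119). miR-154 averaged 3.37 ± 0.07 and miR-300 3.28 ± 0.04 in CTNNB1KO phenobarbital livers, against 4.22 ± 0.33 and 4.01 ± 0.26 in WT phenobarbital livers. Their differences were -0.85 ± 0.14 (adjusted p = 0.000314) and -0.73 ± 0.12 (adjusted p = 0.000639). The 3 members under the floor in both groups differed least, with -0.63 ± 0.10 for miR-411, -0.40 ± 0.09 for miR-411* and -0.30 ± 0.07 for miR-541. The call of miR-411 was lost with values under the floor set to it (adjusted p = 0.149). That of miR-541 was lost with the 2 groups alone (adjusted p = 0.0773) and without WT phenobarbital replicate 1 or 3 or CTNNB1KO phenobarbital replicate 3 (adjusted p up to 0.0807).

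All 4 CTNNB1KO arrays lay below all 4 WT arrays for 10 members, the 9 and miR-495, against 7.04% of all features. In the other direction miR-134 alone was separated, with 3.26, 3.34, 3.38 and 3.24 in CTNNB1KO phenobarbital livers, against 3.22, 3.14, 3.23 and 3.22 in WT phenobarbital livers. Upward separation was found for 4.42% of all features, and miR-134 did not pass.

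In control livers the loss of beta-catenin made no call among the members, 0 of 45 against 0.327% of all features higher and 0.491% lower. At an unadjusted p under 0.05, 2 members were lower, against 4.58% of all features. These were miR-668, with a difference of -0.18 (unadjusted p = 0.0101, adjusted p = 0.354 in limma), and miR-154, with -0.34 (unadjusted p = 0.0224, adjusted p = 0.548 in limma). The third by p was miR-369-3p, which differed by 0.17 (adjusted p = 0.624). miR-154 had 3.33, 3.30, 3.22 and 3.31 in CTNNB1KO controls, against 3.41, 3.56, 3.57 and 3.97 in WT controls, with no overlap. miR-299* and miR-668 were separated downward as well, so that 3 members were, against 3.44% of all features, and none was separated upward, against 2.29%. Both groups lie at or under the floor in all of these members. The 9 members that rose in WT differed by -0.34 to -0.01 between the control groups, and the median over all 45 was -0.011.

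The interaction, taken as the phenobarbital difference in CTNNB1KO livers minus the one in WT livers, passed for 4 of the 45 members, all negative, against 7 of 611 features lower (1.15%). They were miR-154* at -1.84 ± 0.28 (adjusted p = 0.00111), miR-379 at -1.05 ± 0.20 (adjusted p = 0.00837), miR-377 at -0.95 ± 0.19 (adjusted p = 0.0101) and miR-411 at -0.61 ± 0.14 (adjusted p = 0.031). For the other 5 of the 9 the difference between genotypes was negative but did not pass: miR-300 -0.70 (adjusted p = 0.0587), miR-299* -0.75 (adjusted p = 0.127), miR-411* -0.34 (adjusted p = 0.276), miR-154 -0.51 and miR-541 -0.27 (both adjusted p = 0.34). miR-668 had a positive interaction of 0.33 that did not pass (adjusted p = 0.11), but did without WT phenobarbital replicate 2 (0.37, adjusted p = 0.0416) and with array weights (adjusted p = 0.0227). Outside the cluster 3 features passed, 2 of the miR-376 family and 1 of the Rtl1-antisense and proximal miRNAs. Of the 4 calls among members, only that of miR-154* held in every alternative fit run. Without WT phenobarbital replicate 1 the count was 7 members, with miR-299*, miR-300 and miR-154 added. The call of miR-411 was lost in 8 of the 16 fits without 1 array (adjusted p up to 0.0941). Without CTNNB1KO phenobarbital replicates 1 and 2, the 2 arrays that carry striated muscle miRNAs, 2 members passed.

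The arms of a hairpin did not pass alike in all cases. Of the 12 hairpins with both arms on the array, both arms rose in WT with phenobarbital in 2 and a single arm in 2, while neither passed in 8. In the miR-411 hairpin the 5′ arm differed by 0.59 and the 3′ arm by 0.38. In the miR-154 hairpin the 5′ arm differed by 0.59 and the 3′ arm, miR-154*, by 1.74. In the miR-299 hairpin the 5′ arm differed by 0.84 and the 3′ arm by 0.14. In the miR-300 hairpin the order was turned, with -0.00 for the 5′ arm and 0.61 for the 3′ arm. The arm that carries the larger value was therefore the 5′ arm in 2 hairpins and the 3′ arm in 2. Over all 45 members, 5 of 17 features from 5′ arms and 4 of 26 from 3′ arms were among the 9, and 2 features had no arm assigned. The difference between arms was not tested, and levels of different features are not compared. The arms miR-299 and miR-300* lay under the floor in every group, so a change in them below detection would not be seen.

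**Figure D3:**
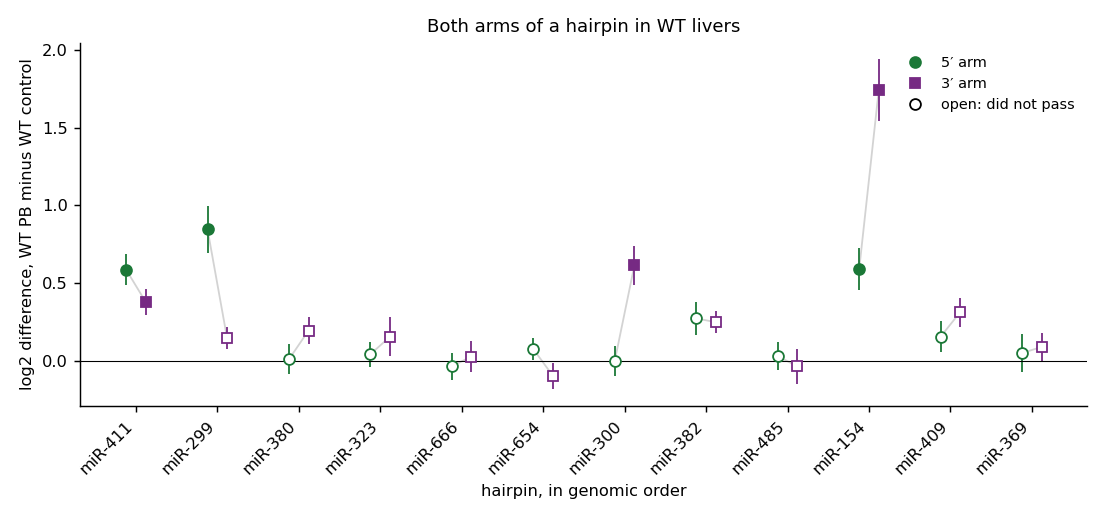
Phenobarbital minus control difference (log2, ± SE) in WT livers for both arms of the 12 hairpins with both on the array, in genomic order, with circles for 5′ arms, squares for 3′ arms and filled symbols for those that passed. Both symbols are filled for miR-411 and miR-154, the 5′ arm alone for miR-299 and the 3′ arm alone for miR-300, and the arms of the other 8 lie between -0.10 and 0.31.

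Along the chromosome the members that rose fell into 4 stretches separated by member hairpins that did not pass. No member of those hairpins exceeded the floor on any array, so the gaps are not evidence of unchanged levels. At an unadjusted p under 0.05 in limma, 8 of these members differed in WT, miR-668 downward and the others upward. The borders of the stretches thus depend on the threshold. The miR-376 family lies inside the same interval and is not placed here, although 2 of its 6 features were higher with phenobarbital in WT. The first 3 hairpins, miR-379, miR-411 and miR-299, lie within 1.578 kb. The next 12 hairpins, miR-380 to miR-654, gave 16 features with differences of -0.18 to 0.29, of which none passed. miR-300 follows at 15.253 kb from the first hairpin. The 9 hairpins after it, miR-381 to miR-453, gave 11 features between -0.23 and 0.27 and none passed. miR-154 lies at 29.373 kb, miR-496 next to it differed by 0.09, and miR-377 and miR-541 lie at 31.45 and 33.349 kb. The last 4 hairpins, miR-409 to miR-410 at 34.098 to 34.655 kb, gave 6 features between -0.12 and 0.31.

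**Figure D4:**
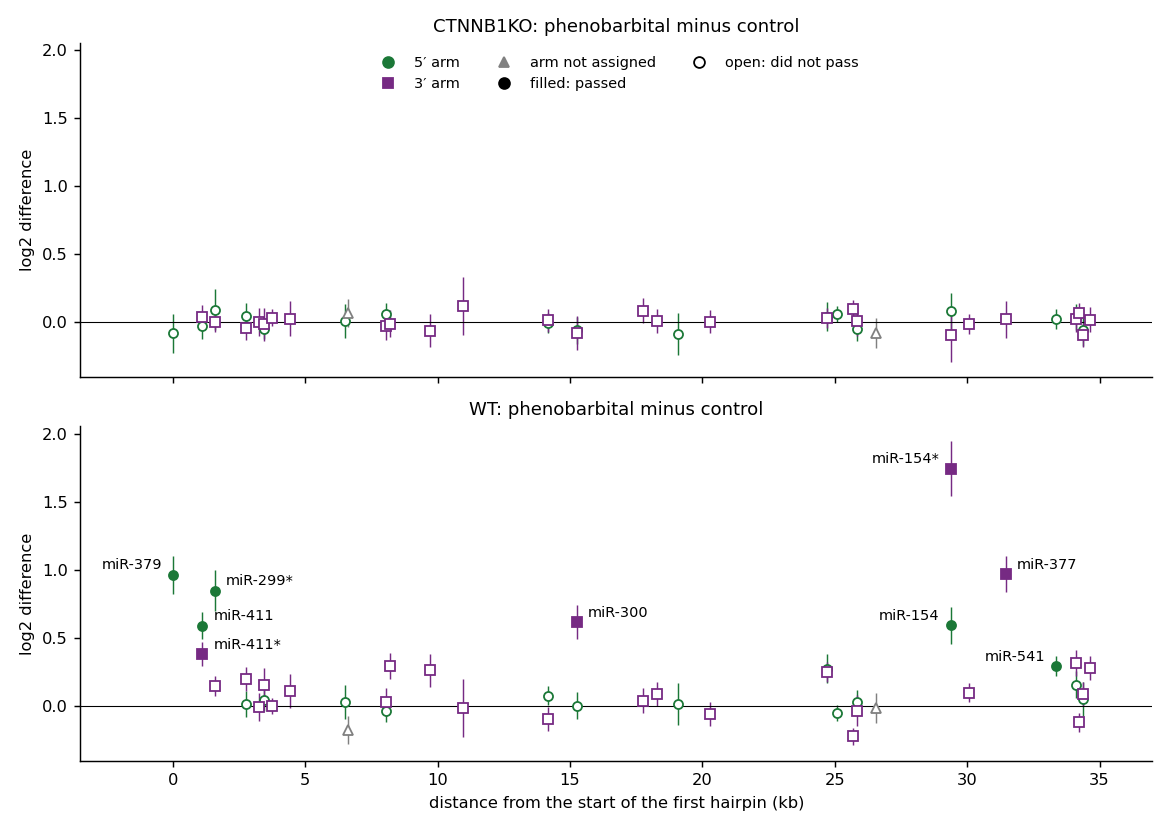
Phenobarbital minus control difference (log2, ± SE) of each of the 45 members against the distance of its hairpin from the first hairpin of the cluster (kb), in CTNNB1KO livers (upper panel) and WT livers (lower panel). Circles are 5′ arms, squares 3′ arms and triangles features with no arm assigned. Filled points passed; the 9 of them lie in the lower panel in 4 stretches, at the 5′ end, at 15.253 kb, at 29.373 kb and at 31.45 to 33.349 kb, and none passed in the upper panel.

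The strands nearest in sequence to miR-300 and miR-154* did not rise with them. miR-300 differed by 0.61 and miR-381 by 0.04 in WT, although the 2 strands printed above share 19 of 22 bases. miR-381 had 3.21, 3.38, 3.47 and 3.27 in WT phenobarbital livers, against 3.44, 3.13, 3.39 and 3.23 in WT controls. miR-154* differed by 1.74 and miR-369-3p, with 17 of 21 bases in common, by 0.09. miR-369-3p had 3.33, 3.20, 3.50 and 3.36 in WT phenobarbital livers, against 3.40, 3.17, 3.29 and 3.18 in WT controls. In both pairs the second strand stayed near the viral median. miR-379 and miR-411, with 14 of 21 bases in common, both rose.

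Neighbours in the Dlk1-Dio3 region that are not members were set beside the cluster as 3 lists. Of 6 features of the miR-376 family, which lies inside the interval, 2 were higher with phenobarbital in WT (median difference 0.30), 3 were lower in CTNNB1KO than in WT under phenobarbital, and 2 had a negative interaction. Its largest difference in WT was that of miR-376b, 2.14 ± 0.15 (adjusted p = 1.21e-08), against 0.14 in CTNNB1KO. Of 24 features of the Rtl1-antisense and proximal miRNAs, 5 were higher in WT (median 0.025), 6 were lower in CTNNB1KO than in WT under phenobarbital and 1 had a negative interaction. The largest there was miR-127, at 1.25 ± 0.16 (adjusted p = 4.13e-05). miR-494 differed by 0.75 ± 0.48 and did not pass (adjusted p = 0.804).

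Since the region is known for high levels in brain, the summed level of neural markers is given first. It lay between 5.98 and 6.21 on the log2 scale in CTNNB1KO phenobarbital, 6.10 and 6.28 in CTNNB1KO control, 6.12 and 6.18 in WT phenobarbital and 6.03 and 6.29 in WT control arrays. Of the 6 neural markers miR-219 alone exceeded the floor, with group means of 4.19 to 4.48. Under it in each group mean were miR-124 (3.20 to 3.23), miR-9 (3.32 to 3.46) and miR-128 (3.46 to 3.75). So were miR-138 (3.24 to 3.32) and miR-153 (3.14 to 3.34), and much of the sum is therefore background. No marker of the neural, leukocyte, erythroid, muscle, stellate, endothelial or hepatocyte lists passed for phenobarbital in WT or in CTNNB1KO. Leukocyte markers summed to 7.73 to 8.15 in WT phenobarbital and 8.02 to 8.35 in WT control arrays, and erythroid markers to 11.6 to 12.2 in WT phenobarbital and 11.5 to 13.0 in WT control arrays. Stellate markers summed to 7.24 to 7.54 in WT phenobarbital and 7.33 to 7.57 in WT control arrays. For the neural, leukocyte, erythroid and stellate lists the WT phenobarbital and WT control ranges overlapped. The hepatocyte sum, led by miR-122, ran from 15.27 to 15.38 in WT phenobarbital and from 15.41 to 15.42 in WT control arrays. These ranges do not overlap, but miR-122 has the same highest value on all WT control arrays. Hepatocyte content is therefore not read from this sum, and its part in the rise of the cluster was not tested.

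Between genotypes under phenobarbital some markers did move. Of the leukocyte markers 1 of 6 passed, with sums of 8.27 to 9.89 in CTNNB1KO and 7.73 to 8.15 in WT phenobarbital arrays. Of the erythroid markers 1 of 3 passed, with sums of 10.3 to 11.4 in CTNNB1KO and 11.6 to 12.2 in WT phenobarbital arrays. Between control livers 2 of the 3 erythroid markers passed, with sums of 10.2 to 10.8 in CTNNB1KO and 11.5 to 13.0 in WT arrays. Striated muscle markers summed to 5.25 to 9.23 in CTNNB1KO phenobarbital arrays, the high values being replicates 1 and 2, and to 5.30 to 5.52 in all other arrays. Their part in the lower levels of the cluster was not tested; without replicates 1 and 2, 7 of the 45 members were lower in CTNNB1KO, with miR-411* and miR-541 no longer passing.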

How the data were processed

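The authors deposited log2 expression values of 650 miRNA features (611 mouse, 39 viral) on 16 arrays. Per the labels' protocols, liver RNA passed an integrity check and was labelled with a miRNA kit from Agilent. Per the submitters' processing notes, the authors used RMA and limma; the sources used here give no versions, background step or filters. RMA usually includes a step that puts arrays on 1 scale, which can remove a shift shared by most miRNAs. No scanner signals or slide positions were used, and the precision is limited by the number of arrays.

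The deposited log2 values were fitted with limma 3.58.1 in R 4.3.3, with 1 mean per group over all 16 arrays (12 residual degrees of freedom), eBayes with an intensity trend, two-sided tests and Benjamini-Hochberg adjustment over the 611 mouse features at 0.05. The 5 contrasts were phenobarbital against control in each genotype, CTNNB1KO against WT under each diet, and the interaction. The procedure was tested on simulated data in which each feature had the same spread in every group. Unequal spread between groups, as in the members that rose, was not covered by it. "Rose" and "fell" are used of members that passed.

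The members, marker lists and tests were chosen with earlier results of these data known. Values per array are given for members that passed in any contrast, the opposite arm of their hairpins and the 3 members with the highest mean over all arrays, and the 3 smallest p-values are named where none passed; other members are given by ranges and counts. miR-381, miR-410 and the other members named short of the threshold were singled out after their values were seen. Of the 45 members, 12 carry the arm in their name; for the others the arm was taken from the naming history of the miRNA, and RefSeq names were matched on that basis. Alternatives covered the moderation, normalization, floor, array weights, a replicate block, 2 groups alone and leaving out each array. Same-numbered arrays correlated between -0.33 and 0.34 in their deviations from group means, with 8 of 24 pairs over 0.1, so the numbers were not taken to pair the samples.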

Additional observations from a re-analysis of the deposited data

Results flagged for a closer look

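Among the members whose values are given per array, 7 of 56 groups of 4 arrays held an array whose gap to the nearest other array was large against the range of the group (Dixon's 95% limit), a test that chance alone meets in about 1 of 20 groups. Of the 7, 3 are WT phenobarbital replicate 1, the lowest array for miR-299* (3.72), miR-154 (3.73) and miR-377 (3.86). The other WT phenobarbital arrays were miR-300* on replicate 4, the highest at 3.60, and miR-134 on replicate 2, the lowest at 3.14. The remaining flags were miR-300* on CTNNB1KO phenobarbital replicate 1, the lowest at 3.15, and miR-299 on WT control replicate 4, the lowest at 2.98. All but those of the 3 members on WT phenobarbital replicate 1 belong to members that passed in no comparison.

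The phenobarbital effect differed between genotypes by the interaction term for 4 members, at -1.84 for miR-154*, -1.05 for miR-379, -0.95 for miR-377 and -0.61 for miR-411 (limma, CTNNB1KO minus WT).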

How the results depend on the processing

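No result that passed changed direction under the alternatives run; small differences that did not pass could, such as those of miR-379 and miR-411 between control genotypes. For phenobarbital in WT, 9 members passed, and 5 passed with values under the floor set to it, 15 with array weights (14 higher, 1 lower), 8 in the unmoderated fit, 7 after quantile normalization and 6 with the 2 groups alone. For CTNNB1KO against WT under phenobarbital, 9 passed, against 14 with array weights, 8 with the 2 groups alone and 7 without CTNNB1KO phenobarbital replicates 1 and 2. Setting values to the floor left 7 members to test in every comparison, of which 6 passed in this one. Over features above the floor 6 of 6 members passed. Those 6 entered that fit by their WT phenobarbital means, so it is not a separate check. The interaction passed for 4, against 1 in the unmoderated fit, 1 with values set to the floor, 9 with array weights (8 lower and miR-668 higher) and 2 without CTNNB1KO phenobarbital replicates 1 and 2, the last chosen after seeing the data. miR-154*, miR-377, miR-379 and miR-299* passed in WT and between genotypes under phenobarbital in every alternative. The WT call of miR-154 was lost in the unmoderated fit, after quantile normalization and with the 2 groups alone, that of miR-541 after quantile normalization, with the block and with the 2 groups alone, and that of miR-411* with the 2 groups alone. Leaving out each array in turn gave 6 to 10 members in WT, 8 to 10 between genotypes under phenobarbital, 3 to 7 for the interaction, and 0 for phenobarbital in CTNNB1KO and for genotype in controls. With the replicate number as a block, 8 members passed in WT, 9 between genotypes under phenobarbital, 4 for the interaction and 0 in the other contrasts. With the highest viral mean as the floor, 1 member exceeded it in WT phenobarbital and none elsewhere; with the median viral mean, 37 did in CTNNB1KO phenobarbital, 36 in CTNNB1KO control, 37 in WT phenobarbital and 36 in WT control livers. Most members lie under the floor in all groups, so for them a missing difference is not evidence of equal levels. Slide and scan could not be examined, arrays may not be separate animals, and the causes of the changes with array weights were not tested.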
